A study of Mus musculus with 12 samples.

Results

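The carriers that take bile acids and other organic anions from blood into liver cells were followed across the livers of 12 mice. The set held 7 genes, chosen by symbol from the 25676 genes of the deposited TPM table: *Slc10a1*, *Slco1a1*, *Slco1a4*, *Slco1b2*, *Slco2a1*, *Slco2b1* and *Slc10a5*. All 7 were found and all 7 passed the filter on low values, which kept 12278 genes with a mean of at least 0.5 TPM. The mice were C57BL/6 and 3 to 4 months old. Of these, 6 were Foxa3-Cre YAP1 KO (3 males and 3 females), in which Cre under the *Foxa3* promoter removes *Yap1*, and 6 were WT (3 males and 3 females), and the labels give no further allele for either genotype. *Foxa3* is active in embryonic endoderm, whose descendants include hepatocytes and the lining of the bile ducts. The deletion need therefore not be limited to hepatocytes, and values of whole liver do not show which cells lost *Yap1*. The material was whole liver, and each library came from 1 mouse.

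Bile acids circulate between liver and intestine, and most of what returns in portal blood is taken up again across the basolateral (sinusoidal) membrane of hepatocytes. NTCP, the product of *Slc10a1*, does this by sodium cotransport and is the main carrier of conjugated bile acids. The organic anion transporting polypeptides, encoded by *Slco* genes, take up unconjugated bile acids, bilirubin, steroid and thyroid hormone conjugates and drugs without sodium. In mice the *Slco1* genes lie side by side, and several are known to differ between male and female liver.

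*Yap1* was at 23.0 to 34.9 TPM in WT and 0.994 to 3.11 TPM in KO, so the genotypes did not overlap in the targeted gene. Each TPM column summed to 1000000, so a value is a share of a library's transcripts per unit length. Between KO and WT the median log2 difference over all tested genes was 0.35 on TPM as deposited, and -0.04 after each library was divided by its median-of-ratios size factor (0.724 to 0.949 in WT, 1.09 to 1.34 in KO). Fold changes below are differences in log2(TPM + 1), given first on TPM as deposited, and a rescaled value is one computed after that division. The hepatocyte markers *Alb*, *Apoa1*, *Ttr*, *Serpina1a*, *Fgb*, *Cps1* and *Hpd* summed to 82415 to 110560 TPM in WT and 64795 to 88926 TPM in KO. Most of that sum was *Alb*, at 70630 ± 12751 TPM in WT and 58427 ± 10061 TPM in KO (SD, n = 6). Of the others, *Ttr*, *Serpina1a* and *Hpd* had lower mean TPM in KO, and *Apoa1*, *Fgb* and *Cps1* higher. In the labels, WT female replicate 3 and KO female replicate 1 carry lower animal numbers than the rest, and the library number of WT male replicate 2 stands apart from the others. Nothing in the labels beyond the animal numbers says how the mice were housed or paired.

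The region just upstream of the genes is shown for the carriers whose values change most and for the neighbour of one of them that behaves otherwise: the 250 bases before the RefSeq start site (build GRCm38.p6), 5′ to 3′ on the strand of the gene. Capitals mark matches, on either strand, to motifs searched: GGAATG (TEAD factors, the DNA-binding partners of YAP1), AGGTCA (the hexamer of nuclear receptors), TTCNNNGAA (STAT factors), TTGCNNAA (C/EBP factors) and GTTAAT (HNF1).
*Slc10a1* (chr12:80968706-80968955, minus strand): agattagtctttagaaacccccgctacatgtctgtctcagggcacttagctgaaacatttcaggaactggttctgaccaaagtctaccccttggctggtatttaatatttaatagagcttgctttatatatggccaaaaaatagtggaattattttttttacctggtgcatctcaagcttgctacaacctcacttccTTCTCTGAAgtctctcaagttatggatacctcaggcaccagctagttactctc
*Slco1b2* (chr6:141629268-141629517, plus strand): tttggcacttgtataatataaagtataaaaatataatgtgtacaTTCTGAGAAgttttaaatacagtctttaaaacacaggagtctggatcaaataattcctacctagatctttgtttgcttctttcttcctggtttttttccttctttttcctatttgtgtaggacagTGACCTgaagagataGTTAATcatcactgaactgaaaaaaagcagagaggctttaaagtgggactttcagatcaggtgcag
*Slco1a1* (chr6:141946963-141947212, minus strand): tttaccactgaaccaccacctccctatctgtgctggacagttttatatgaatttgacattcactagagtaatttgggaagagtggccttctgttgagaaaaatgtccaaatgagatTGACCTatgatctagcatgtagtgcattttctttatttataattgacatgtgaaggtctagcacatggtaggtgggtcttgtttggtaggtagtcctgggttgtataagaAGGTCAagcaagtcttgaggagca
*Slco1a4* (chr6:141856221-141856470, minus strand): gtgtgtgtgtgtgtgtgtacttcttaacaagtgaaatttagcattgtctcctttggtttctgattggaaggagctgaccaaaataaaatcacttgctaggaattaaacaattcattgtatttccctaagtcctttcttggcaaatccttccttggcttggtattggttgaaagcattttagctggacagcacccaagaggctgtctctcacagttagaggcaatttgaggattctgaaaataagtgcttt

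The *Slco1a1* window held AGGTCA or its complement 134 and 24 bases before the start site. That of *Slco1b2* held the STAT motif at 206, the complement of AGGTCA at 81 and GTTAAT at 66 bases before the start, and that of *Slc10a1* held the STAT motif at 53. The *Slco1a4* window held none of the 5 motifs. No window printed here held GGAATG. Over all 32851 windows of this length in the table, GGAATG was found in 12.6%, AGGTCA in 14%, TTCNNNGAA in 7.02%, TTGCNNAA in 9.56% and GTTAAT in 6.43%. A match describes the letters only. The table held 9 windows for 6 of the 7 carriers, and *Slc10a5* had none. A second start of *Slc10a1* (chr12:80968080-80968329) held AGGTCA at 87 and TTGCNNAA at 75 bases upstream. For *Slco2b1*, which has 3 starts, GGAATG was found upstream of the inner ones, at 185 and 128 bases. The G and C content was 33.6% for *Slco1b2*, 40.4% for *Slco1a1*, 40.8% for *Slc10a1* and 39.2% for *Slco1a4*, below the 52.4% median of all windows, while *Slco2a1* had 63.2%.

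The sodium-dependent carrier gene *Slc10a1* (ENSMUSG00000021135, chromosome 12, 80953183 to 80968705, minus strand of GRCm38) was lower in KO livers of both sexes. The WT females held 542, 503 and 642 TPM and the WT males 381, 335 and 422 TPM. In the KO it was at 155, 163 and 188 TPM in females and at 182, 211 and 205 TPM in males. Every KO liver lay below every WT liver, and the 6 KO values sat within a narrower range than the WT ones. The log2 fold change over both sexes was -1.32 (SE 0.149, limma adjusted p = 8.47e-06, n = 6 against 6) and the rescaled one was -1.79. The fall was -1.73 in females (SE 0.143, limma adjusted p = 2.46e-06) and -0.92 in males (SE 0.143, limma adjusted p = 0.000308). In mean TPM, KO females were 3.33-fold and KO males 1.90-fold below the WT of their sex. The difference between these effects was 0.81 (SE 0.203, limma adjusted p = 0.127), so it did not pass the threshold. In whole liver, fewer cells of a type and less RNA per cell cannot be told apart, for this gene and for all that follow.

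Its relative *Slc10a5* (ENSMUSG00000058921, chromosome 3, 10331734 to 10335656, a gene with 1 exonic block) encodes a liver and kidney member of the same family for which no bile acid transport is established. The WT females held 17.9, 22.0 and 20.04 TPM and the WT males 16.0, 17.8 and 18.1 TPM. KO females held 11.6, 14.8 and 11.2 TPM, all below the WT females, and KO males 11.7, 14.7 and 22.9 TPM, with KO male replicate 3 above all WT males. The change over both sexes was -0.38 (SE 0.159, limma adjusted p = 0.0586) and became -0.82 after rescaling (limma adjusted p = 0.000314). Without KO male replicate 3 it was -0.52 (limma adjusted p = 0.00239). In females it was -0.64 (SE 0.207, limma adjusted p = 0.0304), a call lost when any of 4 libraries was left out (WT female replicates 2 and 3, KO female replicates 1 and 3, limma adjusted p = 0.0718 to 0.104). In males it was -0.12 (limma adjusted p = 0.66), and -0.66 after rescaling (limma adjusted p = 0.02). Without KO male replicate 1 the male value was 0.09, the opposite direction, without KO male replicate 2 it was -0.07, and without KO male replicate 3 it was -0.37 (limma adjusted p = 0.736, 0.839 and 0.0975).

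Among the organic anion carriers, *Slco1b2* (ENSMUSG00000030236, chromosome 6, 141629518 to 141686646, plus strand) is the broad hepatocyte carrier of unconjugated bile acids and bilirubin, the mouse counterpart of the human liver *SLCO1B* genes. WT females held 411, 509 and 542 TPM, and WT males 518, 551 and 553 TPM. KO females held 197, 239.8 and 237 TPM and KO males 219, 364 and 263 TPM. All 6 KO livers lay below all 6 WT livers, with KO male replicate 2 the closest to them. The log2 fold change was -1.04 (SE 0.127, limma adjusted p = 1.73e-05, rescaled -1.50). It was -1.11 in females (limma adjusted p = 0.000519) and -0.97 in males (limma adjusted p = 0.00111), a difference of 0.14 (SE 0.256, limma adjusted p = 0.882). The sexes of WT did not differ past the threshold (0.16, SE 0.181, limma adjusted p = 0.594).

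The largest change of the set was in *Slco1a1* (ENSMUSG00000041698, chromosome 6, 141907282 to 141946962, minus strand), a carrier of bile acids, steroid sulfates and glucuronides that is known to be more abundant in male mouse liver. WT males held 198, 193 and 267 TPM and WT females 42.2, 69.8 and 71.9 TPM. In KO males the values were 1.15, 0.422 and 0.905 TPM, and in KO females 1.01, 0.153 and 0.185 TPM. No KO liver came near any WT liver. The TPM steps corresponded to 1764 to 14126 reads in the WT libraries and to 47, 6 and 8 reads in the KO females and 44, 16 and 32 in the KO males, so the low values rest on few reads but are above 0 in each. Mean TPM was 265-fold lower in KO males and 137-fold lower in KO females. The female mean rests on KO female replicate 1, and without it the fold was 363. On the log2(TPM + 1) scale, which understates changes that end near 0, the fold change was -6.18 over both sexes (SE 0.273, limma adjusted p = 1.69e-09, rescaled -6.48), -6.92 in males (SE 0.266, limma adjusted p = 4.19e-09) and -5.44 in females (SE 0.266, limma adjusted p = 1.99e-08). In the genotype comparison 0.114% of tested genes had a lower fold change.

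*Slco1a4* (ENSMUSG00000030237, chromosome 6, 141805440 to 141856199, minus strand), a relative with a similar range of substrates that also carries digoxin and is known to be more abundant in female mouse liver, did not follow *Slco1a1*. WT females held 69.9, 76.2 and 88.1 TPM, and WT males 19.3, 14.2 and 29.6 TPM. KO females had 46.5, 63.7 and 86.3 TPM, overlapping the WT females. The KO males, with 52.7, 51.4 and 48.1 TPM, were all above the WT males and all below the WT females. In males the rise was 1.29 (SE 0.249, limma adjusted p = 0.00137), 2.41-fold in mean TPM. After rescaling it was 0.73 (limma adjusted p = 0.0554), so the call in males depended on the scale. In females the change was -0.29 (SE 0.249, limma adjusted p = 0.406), and it was -0.07 without KO female replicate 1 and -0.50 without KO female replicate 3 (limma adjusted p = 0.875 and 0.169). Over both sexes it was 0.50 (SE 0.276, limma adjusted p = 0.137), and 0.05 after rescaling. Without KO female replicate 1, one of the low animal numbers and the lowest KO value, it was 0.69 (limma adjusted p = 0.037), and without WT male replicate 2, the lowest WT value, it was 0.31 (limma adjusted p = 0.306).

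**Figure D1:**
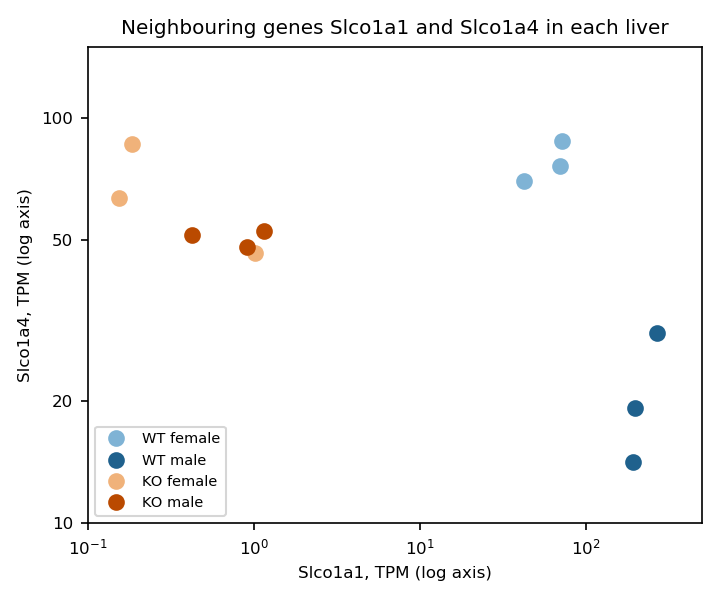
Level of *Slco1a4* (vertical, TPM, log axis) against *Slco1a1* (horizontal, TPM, log axis), 1 point per liver, coloured by group. The WT males lie at the right and at or below 29.6 TPM of *Slco1a4*, the WT females at the right and at 69.9 to 88.1 TPM, and the 6 KO livers at the left, at or below 1.15 TPM of *Slco1a1* and between 46.5 and 86.3 TPM of *Slco1a4*.

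The other 2 carriers are less restricted to hepatocytes. *Slco2b1* (ENSMUSG00000030737, chromosome 7, 99657804 to 99711340, minus strand) encodes a carrier of steroid sulfates and many drugs that is also found in other tissues. WT females held 58.6, 62.1 and 71.5 TPM, and WT males 53.1, 57.7 and 49.4 TPM. KO females held 29.6, 60.0 and 47.1 TPM, and KO males 46.4, 47.5 and 70.3 TPM. The genotypes overlapped in each sex. KO female replicate 1 was the lowest of all 12 livers, and KO male replicate 3 was above every WT male. The fold change was -0.26 (SE 0.175, limma adjusted p = 0.22), and -0.72 after rescaling (limma adjusted p = 0.00557). Without KO female replicate 1 it was -0.11 (limma adjusted p = 0.521). In females the change was -0.53 (SE 0.230, limma adjusted p = 0.0934) and became -0.88 after rescaling (limma adjusted p = 0.0201), and in males it was 0.01 (SE 0.230, limma adjusted p = 0.972, rescaled -0.56). Without KO female replicate 2 the female change was -0.76 (limma adjusted p = 0.0243), and without KO female replicate 1 it was -0.26 (limma adjusted p = 0.366).

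*Slco2a1* (ENSMUSG00000032548, chromosome 9, 102988712 to 103096002, plus strand) encodes the prostaglandin transporter, which clears prostaglandins and is prominent in endothelium. WT females held 24.4, 23.7 and 23.3 TPM, and WT males 32.4, 28.8 and 28.2 TPM. KO females had 21.15, 27.4 and 23.6 TPM and KO males 18.8, 14.02 and 23.6 TPM. The KO males lay below the WT males, while the females of both genotypes overlapped. In males it fell by 0.66 (SE 0.173, limma adjusted p = 0.00819, rescaled -1.22), and in females the change was 0.01 (SE 0.173, limma adjusted p = 0.983), with a difference between the effects of -0.67 (SE 0.245, limma adjusted p = 0.425). Over both sexes the change was -0.33 (SE 0.150, limma adjusted p = 0.0777) and became -0.78 after rescaling (limma adjusted p = 0.00281). Without KO female replicate 2 it was -0.41 (limma adjusted p = 0.0324), and without KO male replicate 2 it was -0.21 (limma adjusted p = 0.176). The 8 endothelial markers summed to 46.6 to 71.4 TPM in WT and 30.4 to 116 TPM in KO, with 2 of 8 higher and 1 lower past the threshold (1 higher and 2 lower after rescaling), where 50.1% of all tested genes were higher and 4.82% lower (20.9% and 18.7% after rescaling). In males they summed to 46.6 to 53.3 TPM in WT and 30.4 to 75.5 TPM in KO, with 1 higher and 0 lower beside 43.3% and 2.81% of all tested genes, and after rescaling 0 higher and 3 lower beside 13.9% and 10.2%. Their part in the *Slco2a1* difference was not tested.

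**Figure D2:**
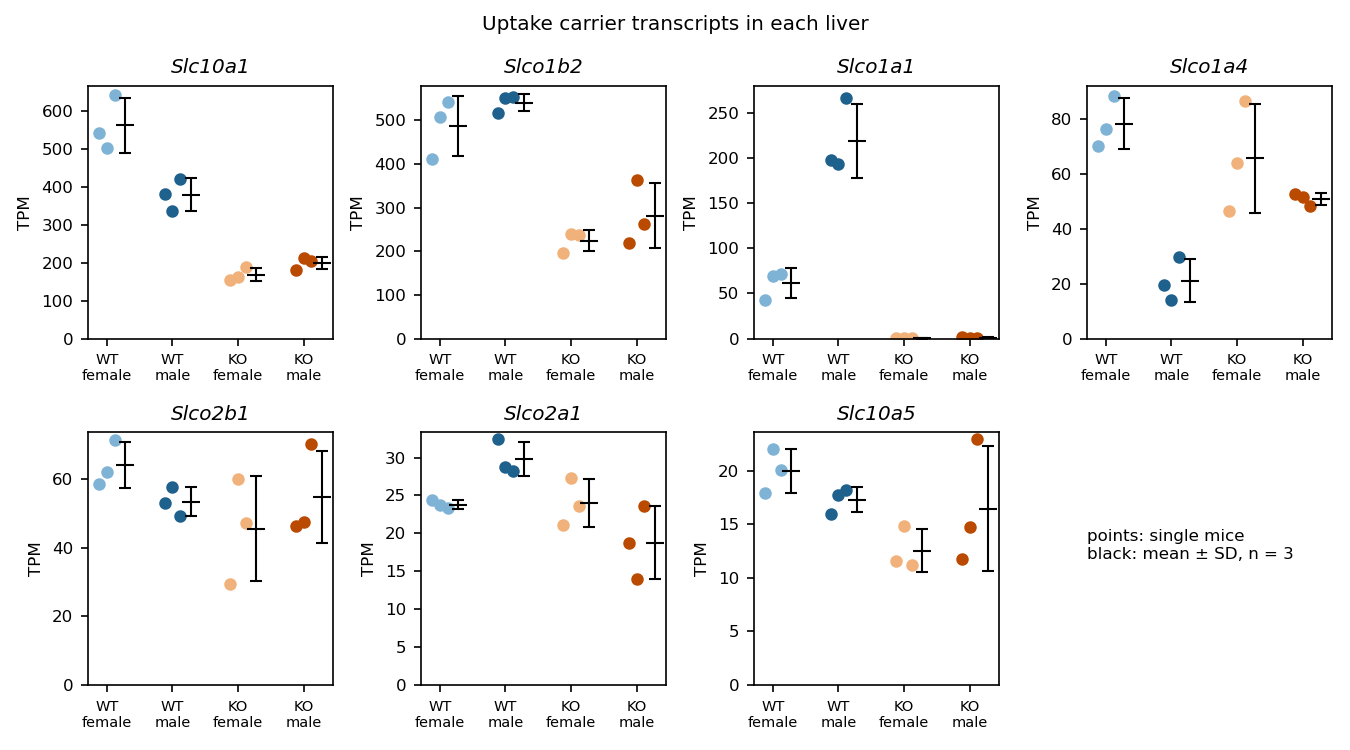
TPM of the 7 carriers (vertical axes from 0) in the 4 groups, 1 point per mouse, with the mean ± SD (n = 3) in black. *Slc10a1*, *Slco1b2* and *Slco1a1* are separated by genotype, *Slco1a4* stands lowest in WT males, and *Slco2b1*, *Slco2a1* and *Slc10a5* overlap between the genotypes.

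Counted together, 3 of the 7 carriers were lower in KO over both sexes and 0 were higher (limma; 5 of 7 had an unadjusted p under 0.05), where 4.82% of all tested genes were lower and 50.1% higher. The 3 were the carriers whose 6 KO values all lay below the 6 WT values, a state found in 1.88% of tested genes. The median log2 fold change of all 7 carriers was -0.38 beside 0.35 over all tested genes. After rescaling, 6 of 7 were lower, and 0 higher, beside 18.7% of all tested genes lower and 20.9% higher, with a median of -0.82 beside -0.04, and the exception was *Slco1a4*. The 7 tested hepatocyte markers had a median of -0.27 over both sexes, with 3 lower and 1 higher. After rescaling their median was -0.74, with 4 lower and 0 higher. For 10 other basolateral carriers of hepatocytes, described below, it was -0.11, and -0.58 after rescaling. A median below that of all tested genes was thus not particular to the 7 carriers. In males 4 carriers were lower and *Slco1a4* was higher, where 2.81% of tested genes were lower and 43.3% higher. In females 4 were lower and 0 higher (limma; 5 had an unadjusted p under 0.05), where 4.68% of tested genes were lower and 29.1% higher. After rescaling 5 were lower and 0 higher in each sex, beside 10.2% of tested genes lower and 13.9% higher in males, and 10.9% lower and 15.2% higher in females. *Slc10a1*, *Slco1b2* and *Slco1a1* were lower past the threshold in each sex and on both scales.

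**Figure D3:**
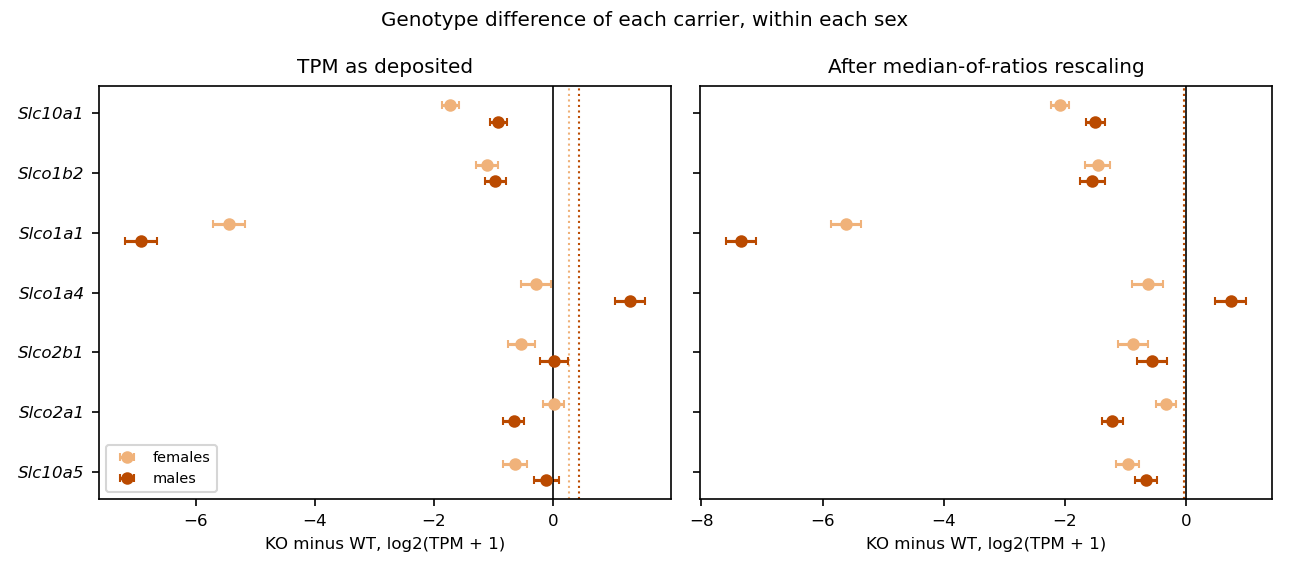
KO minus WT difference in log2(TPM + 1) for each carrier in females and males (points, with the standard error as bars), on TPM as deposited (left) and after median-of-ratios rescaling (right). Dotted lines mark the median of all tested genes in each sex, 0.27 in females and 0.44 in males on the left. *Slco1a1* lies beyond -5 in both sexes, and *Slco1a4* in males is the one rise past the threshold on the left, and does not pass on the right.

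The sex difference within WT was largest in the neighbours *Slco1a1* and *Slco1a4*, in opposite directions. In WT, *Slco1a1* was 3.58-fold higher in males by mean TPM (log2 difference 1.84, SE 0.266, limma adjusted p = 0.00112), and *Slco1a4* was 3.71-fold higher in females (-1.90, SE 0.249, limma adjusted p = 0.00051). The males and the females of WT did not overlap in either gene. *Slc10a1* was 1.48-fold higher in WT females (-0.57, SE 0.143, limma adjusted p = 0.0394), but this call was lost after rescaling (-0.34, limma adjusted p = 0.202) and when any one of 8 libraries was left out (limma adjusted p up to 0.15). These 3 of 7 stand beside 5.74% of tested genes called in WT.

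Within KO the sexes overlapped in all 7 carriers, and within WT they overlapped in 2, *Slco1b2* and *Slc10a5*. The share of all tested genes with such overlap was not computed, so these counts are a description. No carrier differed past the threshold between the sexes of KO (limma, 0 of 7, and 0 of 7 at an unadjusted p under 0.05), beside 0.0814% of all tested genes. The *Slco1a1* difference there was 0.36 (SE 0.266) and the *Slco1a4* difference -0.32 (SE 0.249), each with a limma adjusted p of 0.865. The size of the *Slco1a1* value was set largely by the pseudocount, and with 0.1 in place of 1 it was 1.01 (limma adjusted p = 0.929). The test of the change in sex difference itself, the genotype by sex interaction, called 0 of 7 carriers (limma; 4 of 7 had an unadjusted p under 0.05), beside 0.912% of tested genes. For *Slco1a4* it was 1.58 (SE 0.352, limma adjusted p = 0.0652), passing without WT male replicate 3 (1.85, limma adjusted p = 0.00884) or KO female replicate 3 (1.80, limma adjusted p = 0.0381). For *Slco1a1* it was -1.48 (SE 0.376, limma adjusted p = 0.135), passing after rescaling (-1.74, limma adjusted p = 0.034, where 0.839% of tested genes passed) and shrinking to -0.85 with a pseudocount of 0.1 (limma adjusted p = 0.701).

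The order of the 4 group means therefore took several forms. For *Slc10a1* it ran from WT females (562 ± 71.6 TPM, SD, n = 3) through WT males (379 ± 43.2 TPM) and KO males (199 ± 15.5 TPM) to KO females (169 ± 17.3 TPM), and the last neighbours did not differ (limma adjusted p = 0.859). For *Slco1b2*, WT males (541 ± 20.02 TPM) and WT females (487 ± 67.7 TPM) did not differ, nor did KO males (282 ± 74.3 TPM) and KO females (225 ± 23.8 TPM), while WT females and KO males did (-0.81, SE 0.181, limma adjusted p = 0.00409). For *Slco1a1*, the steps from WT males (219 ± 41.1 TPM) to WT females (61.3 ± 16.6 TPM) and on to KO males (0.827 ± 0.372 TPM) both passed, and that to KO females (0.449 ± 0.485 TPM) did not. *Slco1a4* ran from WT females (78.1 ± 9.26 TPM) through KO females (65.5 ± 19.9 TPM) and KO males (50.7 ± 2.33 TPM) to WT males (21.03 ± 7.85 TPM), and only the last step passed. Across sex and genotype at once, 3 of 7 carriers differed between WT females and KO males (37.6% of tested genes, and 6 beside 28.4% after rescaling), and 4 of 7 between WT males and KO females (47.8%, and 7 beside 31.3% after rescaling). No neighbouring groups differed past the threshold in *Slco2b1*, *Slco2a1* or *Slc10a5* on TPM as deposited (limma adjusted p from 0.125 to 0.983). After rescaling, 4 of these same pairs did: WT males and KO females in *Slco2a1* (limma adjusted p = 0.00228) and *Slco2b1* (limma adjusted p = 0.0213), WT females and KO males in *Slco2a1* (limma adjusted p = 0.0101), and WT and KO males in *Slc10a5* (limma adjusted p = 0.02).

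Summed over the 7 genes, uptake carrier transcripts came to 1297 ± 148 TPM (females) and 1261 ± 92.6 TPM (males) in WT, and to 541 ± 70.0 TPM (females) and 623 ± 86.5 TPM (males) in KO (SD, n = 3). The WT males and females reached similar sums by different members. *Slc10a1* made up 43.4 ± 3.42% of the sum in WT females and 30.0 ± 1.79% in WT males, and *Slco1a1* 4.69 ± 0.974% and 17.3 ± 1.91%. In KO the shares of *Slc10a1* (31.3 ± 2.43% in females, 32.2 ± 2.09% in males) and *Slco1b2* (41.6 ± 1.46% and 44.8 ± 6.00%) were alike in both sexes, and *Slco1a1* was at most 0.218%. Of the *Slco1a1* and *Slco1a4* transcripts together, *Slco1a4* was 8.58 ± 1.60% in WT males, 56.5 ± 5.25% in WT females and at least 97.9% in each KO liver. With the sum itself smaller in KO, the mean shares of the 4 carriers not called over both sexes as deposited were all larger there: *Slco1a4* 10.1 ± 2.64% against 3.83 ± 2.41% in WT (SD, n = 6), *Slco2b1* 8.58 ± 1.93% against 4.605 ± 0.537%, *Slco2a1* 3.77 ± 0.999% against 2.11 ± 0.377%, and *Slc10a5* 2.48 ± 0.615% against 1.46 ± 0.161%. These shares are given as a description.

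**Figure D4:**
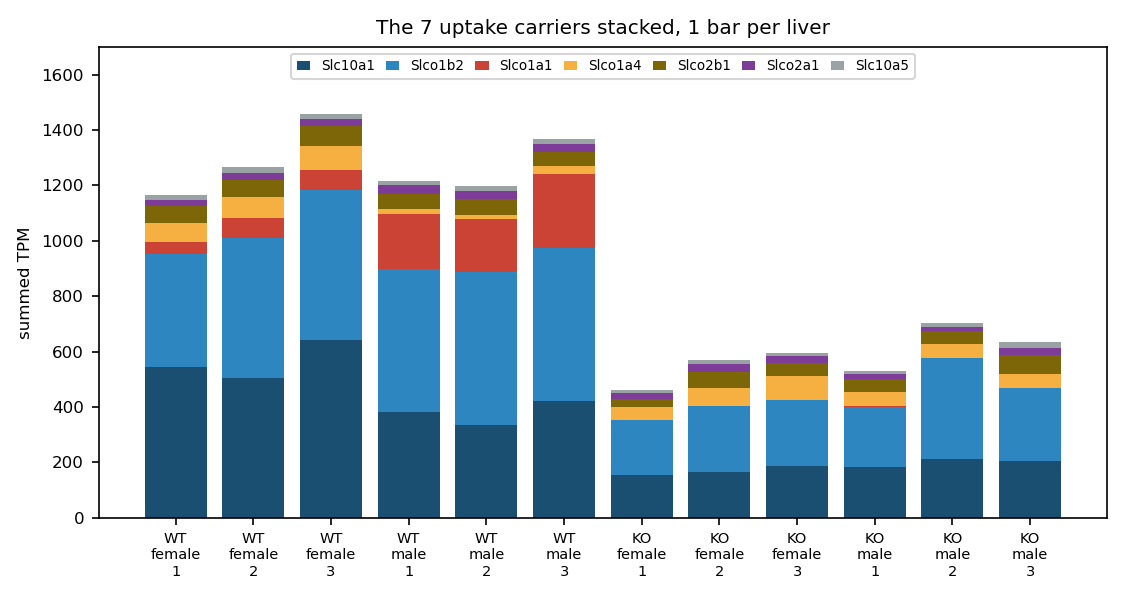
Summed TPM of the 7 carriers (vertical axis from 0), stacked by gene, 1 bar for each of the 12 livers. The WT bars reach 1167 to 1458 TPM and the KO bars 462 to 703 TPM, and the *Slco1a1* block, widest in WT males, is not visible at this scale in most KO bars.

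The *Slco1* genes occupy 799 kb of chromosome 6, in the order *Slco1c1*, *Slco1b2*, *Slco1a4*, *Slco1a1*, *Slco1a6* and *Slco1a5*, with the annotated genes *Gm5724* and *Gm6614* between them. The start sites of *Slco1a4* and *Slco1a1*, read from the same strand, are 90.8 kb apart. Only *Slco1b2*, *Slco1a4* and *Slco1a1* were tested. *Slco1c1* was at most 0.222 TPM and *Slco1a6* at most 0.105 TPM in any liver, *Slco1a5* was listed at 0 in all, and *Gm6614* and *Gm5724* were at most 0.234 and 0.036 TPM. Beyond the cluster, the nearest tested gene, *Pyroxd1*, had a log2 fold change of 0.25 (limma adjusted p = 0.0566). In GENCODE transcripts, 1.58% of the 50-base stretches of *Slco1a1* also occur in *Slco1a4* and 1.31% of those of *Slco1a4* in *Slco1a1*. Reads in those stretches could be assigned to either gene, and *Slco1b2* shared none with the other genes of the cluster.

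Genes with the most similar pattern to each carrier over the 12 livers were listed by Pearson correlation of log2(TPM + 1), as a description over libraries that share groups. *Slco1a1* was closest to *Cyp2f2* (r = 0.991), a periportal cytochrome P450, to *Mup3* (0.991), a major urinary protein, and to *Slc22a30* (0.986). Mean *Cyp2f2* was 901 TPM (females) and 1482 TPM (males) in WT and 94.0 TPM (females) and 126 TPM (males) in KO. *Slc10a1* was closest to *Irx1* (0.984), *Sult5a1* (0.982), a sulfotransferase, and *Adtrp* (0.978), and *Slco1b2* to the carboxylesterase *Ces3a* (0.964), the mitochondrial carrier *Slc25a16* (0.960) and *Ugt3a1* (0.960). *Irx1* passed the filter on low values only through WT. Its means were 1.12 TPM (females) and 0.847 TPM (males) in WT, and 0 TPM (females) and 0.0847 TPM (males) in KO. *Sult5a1* was also near the floor in KO, at 0.0453 TPM (females) and 0.0952 TPM (males). *Slco1a4* was closest to *Tecr* (0.959), *Fmo2* (0.957) and *Cyp2a4* (0.956), which were lowest in WT males as well, *Cyp2a4* at a mean of 1.36 TPM there against 2033 TPM in WT females. For *Slco2b1*, *Slc10a5* and *Slco2a1* the closest genes had lower values, from *Ppp1r15b* with *Slc10a5* (0.909), *Mthfd1* with *Slco2b1* (0.890) and *Tln2* with *Slco2a1* (0.846).

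Among the carriers themselves, the 3 that fell were alike over the 12 livers (r from 0.856 for *Slc10a1* with *Slco1a1* to 0.915 for *Slco1b2* with *Slco1a1*), as their genotype difference requires. Within groups, after the group means were removed, *Slco1a1* had r = -0.076 with *Slc10a1* and -0.27 with *Slco1b2*, and *Slco1b2* had r = 0.49 with *Slc10a1*. *Slc10a1* and *Slco1a4* had r = 0.768 within groups and -0.027 over all. *Slc10a5*, *Slco2b1* and *Slco2a1* had r from 0.529 to 0.682 with each other within groups. Over 12 libraries of differing size factors such values describe these livers only.

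Of 15 further *Slco* and *Slc10* genes, 14 were in the table, 5 were tested, and 3 were higher in KO with 0 lower (median 0.66 beside 0.35 over all tested genes), near the 50.1% of all tested genes that were higher. After rescaling 1 was higher and 0 lower, where 20.9% of all tested genes were higher and 18.7% lower, so that count too is near the background. *Slc10a2*, the sodium-dependent bile acid carrier of ileum and bile duct cells, rose from 8.74 ± 6.36 TPM in WT to 28.3 ± 9.97 TPM in KO (SD, n = 6). Its rise on the log2 scale was 1.77 (SE 0.275, limma adjusted p = 0.000131, rescaled 1.34). All 6 KO livers, at 19.3 to 46.4 TPM, were above the WT livers, at 3.01 to 17.3 TPM. *Slc10a3* (0.66, limma adjusted p = 0.00516) rose as deposited but not after rescaling (limma adjusted p = 0.115). The third, *Slc10a6*, a steroid sulfate carrier, passed the filter on low values only through KO, so its call supports no rise. It was at 0 to 0.429 TPM in WT and 0 to 2.30 TPM in KO, at most 46 reads, and was listed at 0 in KO male replicate 3. *Slc10a7* changed by 0.25 (limma adjusted p = 0.143) and *Slco3a1* by 0.00 (limma adjusted p = 0.991). The 7 markers of bile duct cells summed to 37.5 to 67.9 TPM in WT and 264 to 729 TPM in KO, with 3 of 5 tested higher and 1 lower, beside 50.1% and 4.82% of all tested genes (2 and 1 after rescaling, beside 20.9% and 18.7%). Most of that sum was *Spp1*, at 33.8 ± 11.2 TPM in WT and 492 ± 195 TPM in KO (SD, n = 6). *Krt19* was at 1.38 ± 0.641 and 1.24 ± 0.728 TPM, *Epcam* at 0.940 ± 0.341 and 0.515 ± 0.169 TPM, and *Krt7* and *Cftr* were below the filter. Their part in the *Slc10a2* rise was not tested.

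Of 10 other basolateral carriers of hepatocytes, 2 were higher and 4 lower past the threshold (1 and 6 after rescaling, median -0.11 beside 0.35), where 50.1% of all tested genes were higher and 4.82% lower (20.9% and 18.7% after rescaling). The organic anion carrier *Slc22a7* fell by 1.31 on the log2 scale (SE 0.295, limma adjusted p = 0.00213), from 32.0 ± 15.5 to 10.9 ± 1.68 TPM (SD, n = 6), and the glutamine carrier *Slc38a3* fell by 0.78. In females *Slc22a7* overlapped (11.7 to 44.4 TPM in WT, 11.3 to 13.3 TPM in KO), and in males it did not (29.7 to 50.3 and 8.96 to 10.4 TPM). *Slc38a3* overlapped in males (403 to 977 TPM in WT, 375 to 569 TPM in KO) and not in females (963 to 1078 and 401 to 481 TPM). The cation carrier *Slc22a3* rose by 1.21 and the lactate carrier *Slc16a1* by 0.88, which was 0.42 after rescaling and no longer passed (limma adjusted p = 0.0715). Of the 9 tested genes that handle bile acids inside the cell or export them, 5 were higher and 2 lower (3 and 4 after rescaling, median 0.55), and the 5 are near the same 50.1% of all tested genes. *Fabp1*, the abundant fatty acid binding protein of hepatocytes that also binds bile acids, fell from 7607 ± 3725 to 1587 ± 705 TPM (-2.21, SE 0.373, limma adjusted p = 0.000259). Of the basolateral exporters, *Abcc3* rose by 1.12, from 116 ± 13.9 to 254 ± 43.2 TPM, and *Abcc4* by 1.10, from 1.23 ± 0.790 to 3.73 ± 1.37 TPM, each also past the threshold after rescaling. *Slc51b*, a subunit of the exporter OST, was at 0.108 to 1.10 TPM in WT and 14.7 to 32.9 TPM in KO. It passed the filter only through KO, so its place among the 5 supports no rise, and the WT and KO ranges are a description. Its partner subunit *Slc51a*, named after its values were seen, was below the filter and overlapped, at 0.0292 to 0.468 TPM in WT and 0 to 1.10 TPM in KO.

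Of 16 genes for factors known to act on uptake carrier genes, 5 were higher and 1 lower (median 0.10 beside 0.35), where 50.1% of all tested genes were higher and 4.82% lower. After rescaling 0 were higher and 6 lower (limma; 7 of 16 had an unadjusted p under 0.05), beside 20.9% and 18.7%. In males 3 were higher and 2 lower, beside 43.3% and 2.81% of all tested genes (0 and 3 after rescaling, beside 13.9% and 10.2%). In females 1 was higher and 4 lower, beside 29.1% and 4.68% (0 and 5 after rescaling, beside 15.2% and 10.9%). In the comparison over both sexes, the growth hormone receptor gene *Ghr* was the one of the 16 lower on both scales. It fell from 200.2 ± 26.9 to 95.9 ± 14.8 TPM (SD, n = 6; -1.06, SE 0.118, limma adjusted p = 8.06e-06, rescaled -1.52), by 1.17 in males and 0.94 in females. *Stat5a* (0.68), *Stat5b* (0.61) and the xenobiotic receptor gene *Nr1i2* (0.65) rose as deposited, and none of these passed after rescaling. Macrophage markers (7 of 7 higher on both scales, of which *Gpnmb*, at 0.188 ± 0.0840 TPM in WT and 5.95 ± 1.32 TPM in KO, passed the filter only through KO, 45.5 to 150.4 TPM summed in WT, 194 to 381 TPM in KO) and stellate and fibroblast markers (5 of 7 higher and 0 lower, 3 and 1 after rescaling, 57.9 to 161 TPM in WT, 149 to 371 TPM in KO) moved with the same contrast. Of the 7 tested hepatocyte markers 4 changed, 3 lower and 1 higher (4 lower and 0 higher after rescaling). All these counts stand beside 50.1% of all tested genes higher and 4.82% lower (20.9% and 18.7% after rescaling). The part of these marker sets in the falls of *Slc10a1*, *Slco1b2* and *Slco1a1* was not tested.

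**Figure D5:**
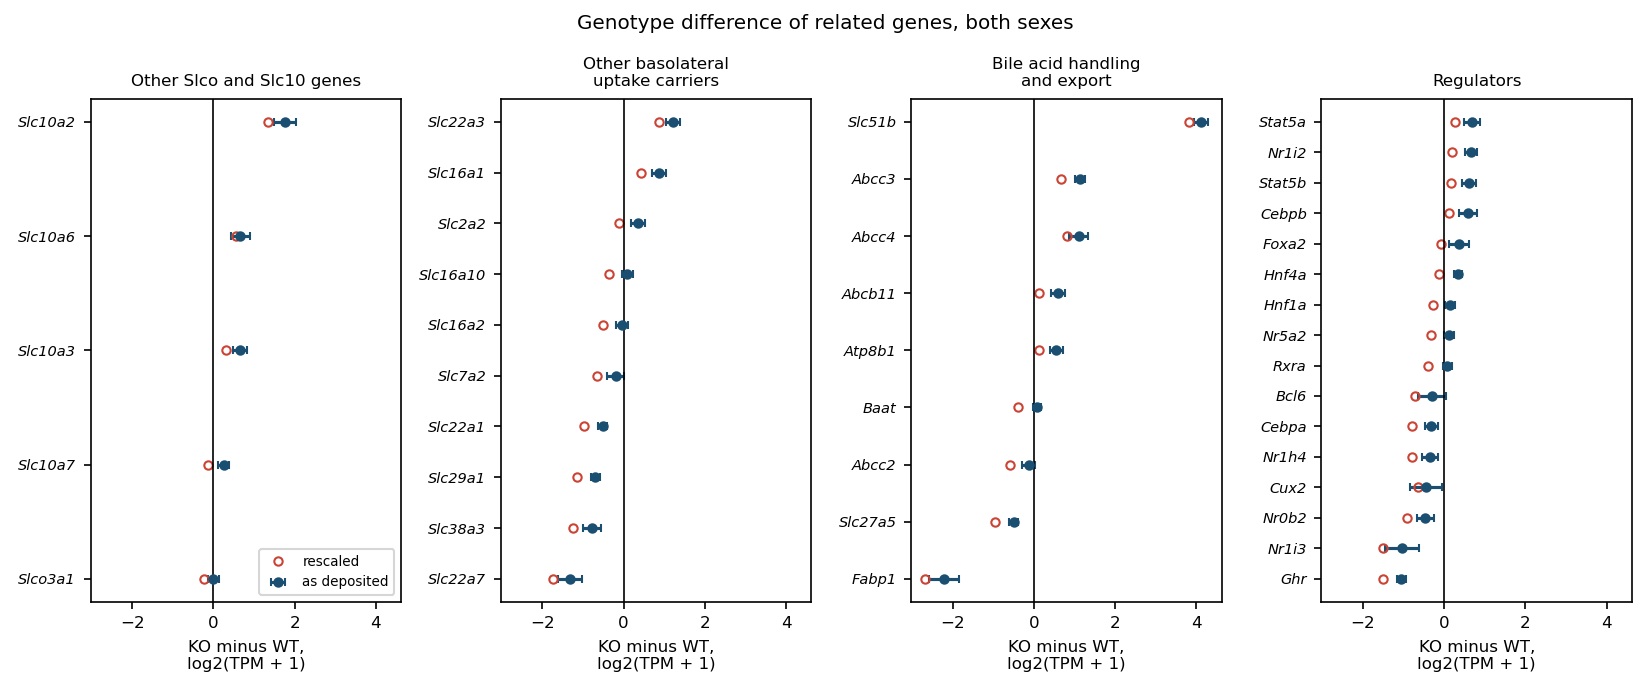
KO minus WT difference in log2(TPM + 1) over both sexes for related genes in 4 lists (filled points with the standard error, TPM as deposited, and open points, rescaled). *Fabp1* lies furthest to the left at -2.21 as deposited. *Slc51b* and *Slc10a6*, to the right of 0, passed the filter on low values only through KO, so their positions are no test.

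The authors' deposited table gives log2 fold changes of -1.75 for *Slc10a1*, -8.37 for *Slco1a1*, -1.68 for *Slco1b2*, -0.95 for *Slco2a1*, -0.92 for *Slco2b1* and -0.92 for *Slc10a5*, each with an FDR p-value printed as 0. For *Slco1a4* the authors' deposited table has 0.60 with an FDR p-value of 0.15.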

How the data were processed

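RNA of 12 whole livers was sequenced after Trizol extraction, column cleaning and DNase digestion, per the labels' protocols, with libraries made by a sequencing company. The authors deposited 1 table of TPM values (length-corrected abundances with the same total in every library), 1 column per mouse, per the file headers, and their own KO against WT comparison (signed fold change, log2 fold change and FDR p-value). The submitters' processing notes name the build GRCm38 and edgeR without a role for either. The aligner, the counter, the annotation and the use of strand are not given in the sources used here. All 12 columns matched 1 sample each. Groups came from titles, and replicate numbers only name libraries. Nothing beyond separate animal numbers says that mice were independent, so p-values measure the spread between these livers.

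TPM were analysed as log2(TPM + 1) in genes with a mean of at least 0.5 TPM, with limma 3.58.1 in R 4.3.3 (lmFit, eBayes with an intensity trend, two-sided, Benjamini-Hochberg adjustment over 12278 genes, threshold 0.05). The genotype effect over both sexes had sex as a covariate, and the other comparisons came from 1 model of the 4 group means. The procedure was tested on simulated data. Alternatives were a pseudocount of 0.1, no filter, median-of-ratios rescaling, rescaling without the 20 most abundant genes, no trend, a covariate for the low animal numbers and each library left out in turn. Library depth is not in the TPM table. Because values of 1 gene are whole multiples of 1 read within a library, reads of single genes were recovered (tolerance 0.05 of a read), taking the smallest step as 1 read: 432 or more in every library for the carriers other than *Slco1a1*. Positions are from GENCODE release 21 for mouse (GRCm38), and promoter sequences from RefSeq (GRCm38.p6).

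The members and lists were chosen with earlier results of these data known. The genes named are the 7 carriers, *Yap1*, tested family members, of other lists up to 4 genes past the threshold with the largest change, and the 3 genes most correlated with each carrier. *Cyp2f2*, *Mthfd1*, *Ppp1r15b* and *Tln2* are among those 3, and cluster neighbours are named by position. Exons and isoforms were not analysed here.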

Additional observations from a re-analysis of the deposited data

How the results depend on the processing

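No paired analysis was possible because the labels carry no replicate numbers shared between groups. The falls of *Slc10a1*, *Slco1b2* and *Slco1a1* over both sexes and in each sex stayed past the threshold under every alternative run. Median-of-ratios rescaling raised the carriers called from 3 to 6 for genotype over both sexes, from 0 to 1 for the interaction, from 3 to 6 between WT females and KO males and from 4 to 7 between WT males and KO females, and lowered all genes called from 5663 to 2959 in males and from 5863 to 3843 between WT males and KO females. With single libraries left out, carriers called for the interaction numbered 0 to 1 and all interaction genes 75 to 176 (112 with all libraries), all genes that differed between the sexes of WT 290 to 1696 (705) and those of KO 6 to 10 (10). The cause was not tested. Of 735 results for single carriers under an alternative, 700 kept their side of the threshold, 20 passed it newly and 15 lost it. These include fits without a library from a group outside the comparison, where the estimate itself cannot change. The count is therefore no measure of stability. Depth limits *Slco1a1* alone, at 6 to 47 reads in KO.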
